A study of Mus musculus with 2 samples.

Results

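The genes described here are 36 nuclear hormone receptor genes of the mouse, taken by name from the GENCODE M21 annotation on mm10, of 21938 protein-coding and 55450 annotated genes. For each gene, accessible regions were read from the gene body and 10 kb on either side. Accessibility was measured by DNase-seq, in which the nuclease DNase I cuts chromatin where regulatory proteins have displaced nucleosomes. The tissue was left cerebral cortex of 2 female B6CASTF1/J mice (an F1 hybrid strain), each 36 days old. There was 1 library per mouse. The labels number them replicate 1 and 2 and give the mice separate numbers, but list 1 donor entry for both. The labels name no treatment, the mice form 1 group, and no comparison of conditions or test between groups was possible. The nuclei came from bulk tissue, in which weak opening in many cells and strong opening in few cells cannot be told apart.

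Nuclear receptors are transcription factors with a zinc finger domain that binds DNA and, in most members, a pocket that binds a small lipophilic ligand such as thyroid hormone, retinoic acid, an oxysterol, a fatty acid or a steroid. Many of them pair with a retinoid X receptor and bind paired copies of a short hexamer, AGGTCA or close to it, whose spacing helps to select the receptor. Orphan members have no settled natural ligand, and the NR0 members lack the DNA-binding domain. In the brain, thyroid hormone and retinoid receptors act in neuronal maturation, liver X receptors in cholesterol export and Nr2e1 in neural stem cells.

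A peak is an entry of the shorter deposited peak list of a library, and its height is the authors' own signal value on a scale whose factor is not stated. Peaks of the mice that overlapped by at least 1 bp were merged, and a region called in both mice holds a peak of each. A promoter region lies within 1 kb of any annotated transcription start of the gene. A gene with a promoter region in both mice is called open and one without closed, also where 1 mouse had a peak. A distal region lies farther than that from every annotated start of any gene. Heights are given for replicate 1 first and replicate 2 second. Over the 45612 regions with 1 peak per mouse, heights of replicate 2 were a median 0.744 of those of replicate 1, so a lower value in replicate 2 is usual.

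A few sequences carry what follows, read from the RefSeq GRCm38 sequence, which has mm10 coordinates. The first is the retinoic acid response element at the start of Rarb, the retinoic acid receptor gene known as a direct target of its own ligand. It lies in the 5′ UTR at chr14:16575507-16575535, is shown on the minus strand on which the gene lies, and has the repeat of GGTTCA and AGTTCA, 5 bases apart, in capitals.
Rarb element: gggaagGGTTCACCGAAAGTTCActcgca

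The next is the receptor promoter region with the highest mean height, at the orphan receptor gene Nr2c2 (chr6:92092161-92092420, plus strand), with the bases that lay inside footprints of both mice in capitals. A footprint is a short stretch in the deposited footprint list of a library where cutting is depleted, as under a bound protein.
Nr2c2 promoter: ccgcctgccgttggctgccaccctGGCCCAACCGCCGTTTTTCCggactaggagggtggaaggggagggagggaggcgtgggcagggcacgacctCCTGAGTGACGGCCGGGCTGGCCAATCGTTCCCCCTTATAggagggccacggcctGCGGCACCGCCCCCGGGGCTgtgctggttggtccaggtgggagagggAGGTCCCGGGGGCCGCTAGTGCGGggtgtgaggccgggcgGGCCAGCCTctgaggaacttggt

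Then come the AGGTCA hexamers (capitals) that a footprint of each mouse touched, among the matches in the central 200 bp of the receptor regions. One lies in a distal region upstream of Rarg (chr15:102262721-102262900, minus strand) and the other in an intronic promoter region of Nr2c1 (chr10:94148229-94148258, minus strand). The rule for printed sequences allowed 3 distal regions of this kind and the data held 1.
Rarg distal region: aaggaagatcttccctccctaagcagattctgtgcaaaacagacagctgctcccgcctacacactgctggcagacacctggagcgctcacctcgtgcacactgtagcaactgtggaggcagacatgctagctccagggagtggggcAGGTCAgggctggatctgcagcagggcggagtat
Nr2c1 promoter hexamer: cctttaggtgaaAGGTCAccggcccggccc

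The last set shows matches to the core of the CTCF motif (capitals) in 3 distal regions, chosen after their values were seen because Esrrb and Ppard were among the regions that differed most between the mice and Hnf4a had closed promoters. They lie in an intron of Hnf4a (chr2:163532078-163532138, plus strand), in an intron of Esrrb (chr12:86402903-86402963, minus strand) and downstream of Ppard (chr17:28308988-28309048, minus strand). CTCF is the zinc finger protein that bounds chromatin loops.
Hnf4a CTCF core: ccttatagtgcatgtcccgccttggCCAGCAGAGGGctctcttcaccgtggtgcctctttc
Esrrb CTCF core: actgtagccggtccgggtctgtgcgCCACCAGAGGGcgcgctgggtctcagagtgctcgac
Ppard CTCF core: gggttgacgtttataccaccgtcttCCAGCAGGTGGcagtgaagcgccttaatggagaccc

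Most receptor genes had an open promoter in this cortex, but most of these promoters were low. Of the 36 genes, 27 (75%) had a promoter region called in both mice, against a background of 61.1% of protein-coding genes. Replicate 1 had a promoter peak at 29 receptor genes (background 63.4%) and replicate 2 at 28 (background 62.3%). In the longer deposited peak lists, which hold more peaks, 30 had a promoter region in both mice (background 65.5%). The receptor genes more often have CpG-rich starts, 25 of 36 (69.4%) against 50.8% of protein-coding genes, counting a gene as CpG-rich when the 500 bp to each side of its most CpG-rich start reach an observed to expected CpG ratio of 0.6 and 50% GC. Of the 25 CpG-rich members 24 were open, a share of 96.0% beside a background of 93.4%, and of the 11 others 3 were open, or 27.3% beside 27.7%. Within each class the receptor share was therefore close to that of all genes.

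Most open receptor promoters were lower than the typical open promoter. The median of the highest promoter height was 2.28 and 1.53 over the 27 open members, and 4.10 and 2.94 over the 13401 open protein-coding genes. Only 8 open members exceeded the median of all open genes in replicate 1, and 8 in replicate 2, and they were the same genes: Nr2c2, Esrra, Rxrb, Ppard, Nr1h3, Nr1h2, Nr6a1 and Nr2c1. The other 19 lay below it in both mice.

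**Figure D1:**
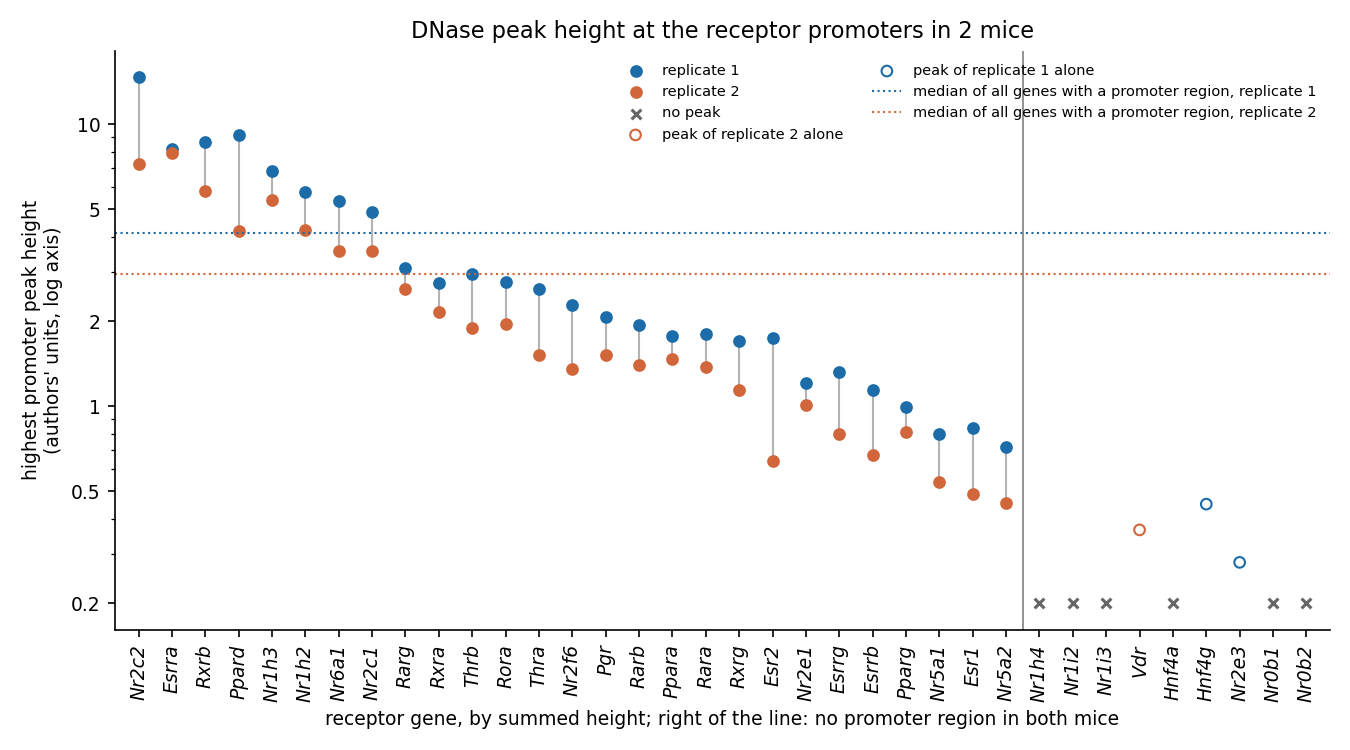
Highest promoter peak height of each receptor gene (vertical log axis, authors' units) in replicate 1 (blue) and replicate 2 (orange), ordered by the sum of both. Dotted lines are the medians of all protein-coding genes with a promoter region (4.10 and 2.94). Genes right of the line had no promoter region in both mice: open circles are peaks of 1 mouse, and crosses, drawn at a fixed position, mark genes with no promoter peak in the shorter lists. Nr2c2 leads at 14.7 and 7.24 and Nr5a2 is the lowest open member at 0.717 and 0.454.

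Both thyroid hormone receptor genes, whose products bind triiodothyronine, were open. Thra (11:98740638, plus strand, 28369 bp long) had promoter heights of 2.61 and 1.53, and Thrb (377830 bp long) had 2.96 and 1.90. In replicate 1, 29.3% of open protein-coding genes were lower than Thra and 34.1% were lower than Thrb. Their surroundings differed. Thra had 16 regions called in both mice, 3.31 per 10 kb, the highest count and density among the 36 genes, whereas Thrb had 7, or 0.176 per 10 kb. The highest regions of the Thra locus lie past its downstream end, which overlaps that of Nr1d1, the clock repressor gene on the opposite strand. The promoter of Nr1d1 stood at 12.6 and 9.77, and a region inside Nr1d1 (11:98773781-98774220), the highest distal one of all receptor loci, at 8.49 and 7.19. Inside Thra an intronic region (11:98747421-98747680) reached 4.07 and 3.46, above the gene's own promoter in both mice.

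The 3 retinoic acid receptor genes, whose products bind all-trans retinoic acid, were open at 1 or more starts. Rarg was highest at 3.10 and 2.60, Rarb had 1.94 and 1.40, and Rara had 1.81 and 1.38. Rarg is a compact gene of 22580 bp with 10 regions, 8 of them at its own starts. The Rara promoter region was a narrow one of 111 bp, and its centre lay 723 bp upstream of the start in the last of 4 groups of starts. Rara also had 13 regions in replicate 1 alone and 0 in replicate 2 alone. With a promoter window of 500 bp Rara was closed. Of its 4 distal regions 3 were higher than its promoter in both mice, up to 3.98 and 1.73 downstream of the gene and 3.73 and 2.18 in an intron. Rarb shares its region with the start of the non-coding gene Gm48162.

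All 3 retinoid X receptor genes, which encode the common dimer partners, were open. Rxrb stood far above the others at 8.62 and 5.81, in a region it shares with the start of the zinc transporter gene Slc39a7, so the height cannot be assigned to either gene. Rxra had 2.74 and 2.15, and Rxrg 1.70 and 1.14. Rxra carried 9 regions, 7 of them distal. The highest distal one lay in an intron (2:27758481-27758700) at 4.93 and 3.69, above both of the gene's own promoter regions.

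Fatty acid receptors differed widely among themselves. Ppard, the most broadly expressed of the 3 peroxisome proliferator receptors, had 9.19 and 4.20. Ppara, which drives fatty acid oxidation in liver, had 1.77 and 1.48, and Pparg, the adipocyte regulator, had 0.991 and 0.813. The pairs of values of the 3 genes did not overlap. The promoter region of Pparg was wide (6:115360801-115362380) and low, and held 16 footprints of replicate 1 and 9 of replicate 2, of which 5 of replicate 1 overlapped one of replicate 2.

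Sterol receptors split into 2 high and 1 closed. Nr1h2, the widely expressed liver X receptor, had 5.77 and 4.21. Nr1h3, the liver X receptor of liver and macrophages, had 6.85 and 5.39, but the centre of this region lies 27 bp upstream of the gene's first annotated start, of a transcript outside the GENCODE basic set, and is shared with the start of the phosphatase gene Acp2. At the basic starts of Nr1h3 replicate 1 alone had a peak, at 0.991. Nr1h4, the bile acid receptor of liver and gut, had no promoter peak in either list of either mouse and 1 region, in an intron (1.81 and 1.61).

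Receptors of xenobiotics and vitamin D were closed. Nr1i2 and Nr1i3, which switch on drug-metabolising enzymes in liver, had no promoter peak in the shorter lists, and in the longer ones replicate 2 had one of 0.320 at Nr1i2. Nr1i3 had 3 regions, all downstream: a distal one (4.83 and 2.84) and 2 at the promoter of Tomm40l, a mitochondrial import gene. Vdr, the vitamin D receptor gene, was the 1 member with CpG-rich starts that did not open in both mice: replicate 2 had a promoter peak of 0.365, and in the longer lists replicate 1 had one of 0.596. Vdr still held a downstream region (3.11 and 2.13) and an intronic one (1.74 and 1.62).

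Neither HNF4 gene, regulators of liver, gut and kidney epithelium, had a promoter region in both mice. Hnf4a had no promoter peak at any of its 3 groups of starts, yet an intron held a region (2:163535001-163535200) at 7.86 and 3.23, higher than 23 of the 27 open receptor promoters in replicate 1 and 19 of them in replicate 2. A second intronic region (2:163532061-163532200), the one whose CTCF core is printed above, had 3.72 and 1.39. Both regions lie inside Hnf4a only through its first start, of a transcript outside the basic set, and are upstream of its other starts. Hnf4g had a promoter peak in replicate 1 alone (0.450) and no region in both mice. In the longer lists its promoter had 0.450 and 0.236.

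Rora, the ROR-alpha gene needed for cerebellar Purkinje cells and circadian control, was open at 2.77 and 1.96. It is the longest member at 734461 bp and carried 15 regions, 11 of them distal, but only 0.199 per 10 kb. The distal regions of Rora were low, from 0.632 to 2.57 in replicate 1 and from 0.578 to 1.20 in replicate 2.

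The NR2 orphan receptor genes held both the highest promoter of the family in replicate 1 and by the sum of both mice, and a closed one. Nr2c2, a testicular receptor active in many tissues, had 14.7 and 7.24, above 99.7% of open genes in replicate 1 and 97.7% in replicate 2. Its close relative Nr2c1 had 4.90 and 3.56. Of the 260 bp of the Nr2c2 region, 148 lay in footprints of replicate 1 and 121 in footprints of replicate 2, with 113 in both. The printed sequence holds a CCAAT box and a GC box (GGGCGG on the opposite strand) that lay wholly inside footprints of each mouse, and a further GC box of which 1 and 3 bases did. Searched on both strands in the central 200 bp, the GC box is present in 48.8% of all promoter regions and CCAAT in 25.2%, so both are common. Over all regions, promoter and distal, the shares are 27.5% and 22.9%. The Nr2c2 region itself was searched over its whole length. Nr2f6, a repressor with a role in the locus coeruleus, had 2.28 and 1.35, and Nr2e1, the neural stem cell receptor also called Tlx, had 1.21 and 1.01. The Nr2e1 region also spans a start of Ostm1 and held 16 and 14 footprints, of which 4 of replicate 1 overlapped one of replicate 2. Nr2e3, the photoreceptor-specific member, had promoter peaks in replicate 1 alone (highest 0.280) and 3 distal regions in both mice, between 1.19 and 1.39 in replicate 1 and between 0.920 and 0.959 in replicate 2.

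The sex steroid receptor genes were open at low height. Pgr, the progesterone receptor gene, had 2.08 and 1.53. Esr2, encoding oestrogen receptor beta, had 1.75 and 0.640, and Esr1, encoding oestrogen receptor alpha, had 0.839 and 0.488. With promoters of 500 bp the mean height of Esr2 fell from 1.19 to 0.619. Few open genes were lower than Esr1, 3.54% in replicate 1 and 1.31% in replicate 2. The highest Pgr region lay in an exon with its centre 1283 bp from the nearest start, so that only its edge fell within 1 kb, and the one over the start had 1.10 and 0.668. Pgr, Esr2 and Nr1h3 are the 3 members open in both mice without CpG-rich starts.

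Oestrogen-related receptors, which lack a known natural oestrogen ligand, ranged from high to low. Esrra, a regulator of mitochondrial genes, had 8.18 and 7.89, the second highest summed height of the family and the highest single height in replicate 2. Its replicate 2 value lay above 98.8% of open genes. Esrrg, a receptor of neurons and heart, had 1.32 and 0.797, and Esrrb, a regulator of pluripotent cells, had 1.14 and 0.673. Esrrb nevertheless held 7 regions, 6 of them distal.

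In the NR5 and NR6 group, Nr6a1, the germ cell nuclear factor gene, had 5.36 and 3.57 with 9 regions. Nr5a1, the steroidogenic factor of gonad and adrenal, had 0.797 and 0.539 at a start outside the basic set, and Nr5a2, its relative in liver and pancreas, had 0.717 and 0.454. With Esr1 these were the 3 lowest open promoters in each mouse. Nr5a1 was also the only open member whose promoter region lacked a footprint of 1 of the mice. The 2 NR0 genes, Nr0b1 on the X chromosome and Nr0b2 on chromosome 4, encode corepressor-like proteins of adrenal and liver and had no promoter peak in the shorter lists. The longer lists gave Nr0b1 0.255 and 0.303. The single region near Nr0b2 lies at the start of Nudc (5.31 and 4.45).

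Several receptor genes were open at a downstream start and not at the first one. Starts of a gene within 1 kb of the next were joined into groups. Of the 29 members with 2 or more groups, 8 had 2 or more open groups (27.6%, background 15.9%). A region within 1 kb of 2 groups counted for both, in the background too. At Pparg and Nr2c2 the 2 open groups held the same regions, so they are not separately open starts. At Rora, Rarg and Nr6a1 an open group held only regions that a neighbouring open group also held. Each of these genes had a further open group with a region of its own. Of the 24 members with 2 or more groups and a promoter region, 7 had their first group closed (29.2%, background 10.4%): Rara, Rarb, Esr1, Esrrb, Esrrg, Nr5a1 and Nr5a2. The 36 receptor genes are longer than all protein-coding genes (median 56524 bp against 17425 bp) and have more groups of starts (median 3 against 2), and the part of either in these counts was not tested.

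Distances were large in the long genes. Rarb was open 243 kb downstream of its first annotated start, at the start that carries the printed element, and Esrrg 389 kb downstream. The first group of Rarb holds only transcripts outside the basic set. Esr1 was open at a start 98.6 kb in, and its first group had a peak of 0.365 in replicate 2 alone. The first group of Rara had a peak of 0.584 in replicate 1 alone. Its group 11.9 kb downstream had one of 1.67, also in replicate 1 alone. Rora was open at its first start (1.55 and 1.42) but higher at a start 636 kb downstream (2.77 and 1.96), in both mice. Rxra showed the same order, with 1.59 and 0.942 at the first start and 2.74 and 2.15 at a start 63.8 kb inside, of a transcript outside the basic set. The same held for Rarg, where the first group had 1.37 and 0.797 and the group 11.02 kb downstream had 3.10 and 2.60. In all 3 genes the lower value at the downstream start (replicate 2) exceeded the higher value at the first start (replicate 1). Nr6a1 was also higher in both mice 1.41 kb downstream (5.36 and 3.57, against 3.09 and 2.31 within 1 kb of the first group). These groups are not separate, because both regions near the first also lay within 1 kb of the downstream one. The region with 3.09 and 2.31 had its centre 506 bp upstream of the downstream start. The region nearest the first start had 2.23 and 0.898. Nr2f6 was slightly higher 6.17 kb downstream (2.28 and 1.35, against 2.19 and 1.31).

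**Figure D2:**
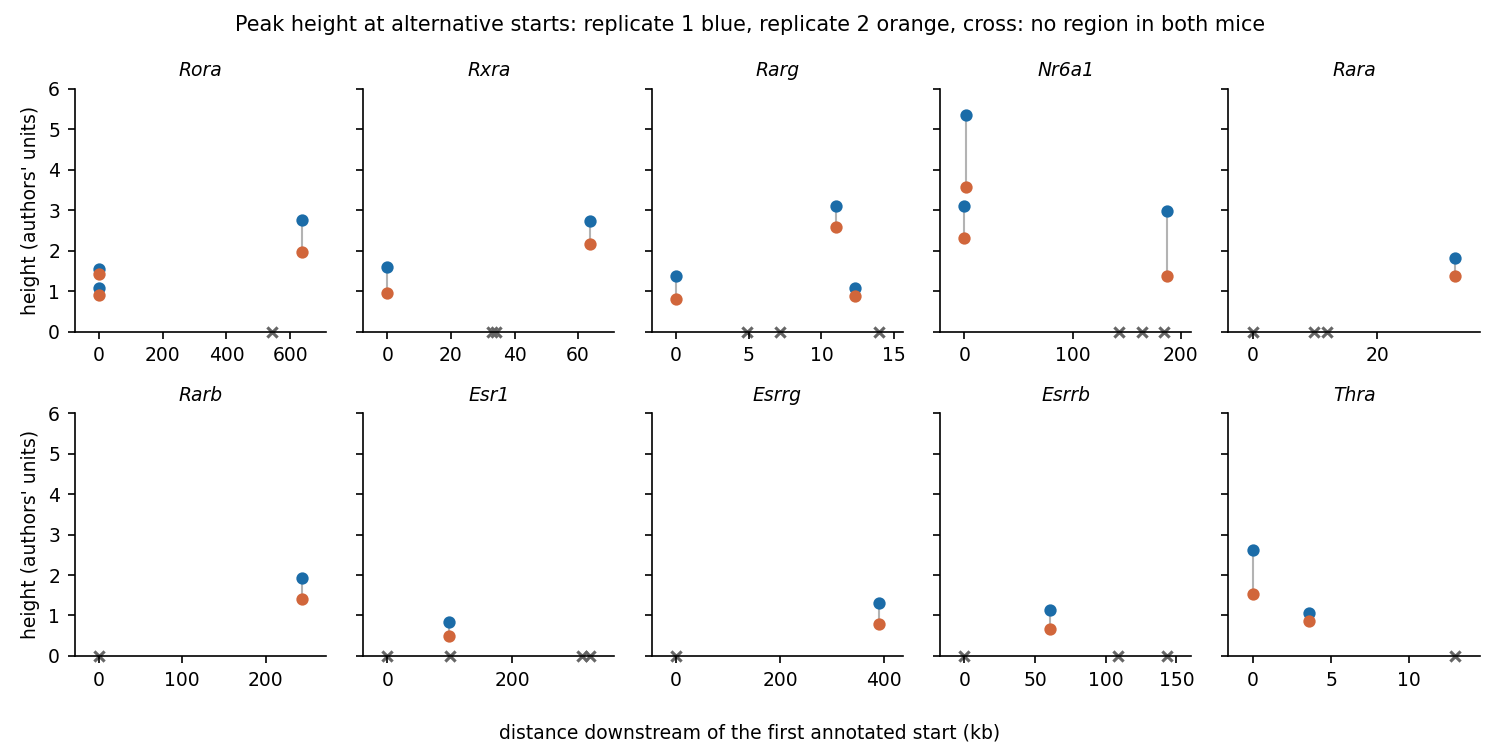
Height at each group of starts (vertical axis, authors' units; replicate 1 blue, replicate 2 orange) against its distance downstream of the first annotated start (horizontal axis, kb) for 10 receptor genes. Crosses mark groups with no region in both mice. Rora, Rxra, Rarg and Nr6a1 are higher at a downstream group than at the first, and Rarb, Rara, Esr1, Esrrg and Esrrb have no region in both mice at the first. At Nr6a1 the region drawn for the first group lies nearer to a start of the downstream group.

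Distal regions were common but unevenly spread over the family. In all, 159 regions in both mice fell in the receptor loci, each at 1 member only: 52 at a member's own promoter, 27 at the promoter of another gene and 80 distal. At least 1 distal region was present at 23 of 36 members (63.9%), against 44.3% of protein-coding genes, which are shorter. Of the 80, 57 lay in introns, 13 downstream, 7 upstream, 2 in exons outside UTRs and 1 in a UTR exon. Their heights ran from 0.426 through a median of 1.34 to 8.49 in replicate 1, and from 0.381 through 0.976 to 7.19 in replicate 2. Beside those at Thra, Hnf4a, Rxra and Nr1i3 given above, high ones lay downstream of Rxrg (1:167645001-167645200, 6.88 and 2.22), downstream of Ppard (5.82 and 2.02), upstream of Ppard (4.80 and 3.60) and downstream of Rxra (4.83 and 2.28). Low ones lay at Esr1, whose 3 distal regions had 0.426 to 0.511 in replicate 1 and 0.421 to 0.443 in replicate 2.

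Thra and Rora had 11 distal regions each, Rxra 7 and Esrrb 6, while Hnf4g, Nr0b1 and Nr1i2 had no region of any kind in both mice. The median density, over gene body and flanks, was 0.416 regions per 10 kb over the members and 0.352 over protein-coding genes. These medians were not adjusted for the greater length of the receptor genes.

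**Figure D3:**
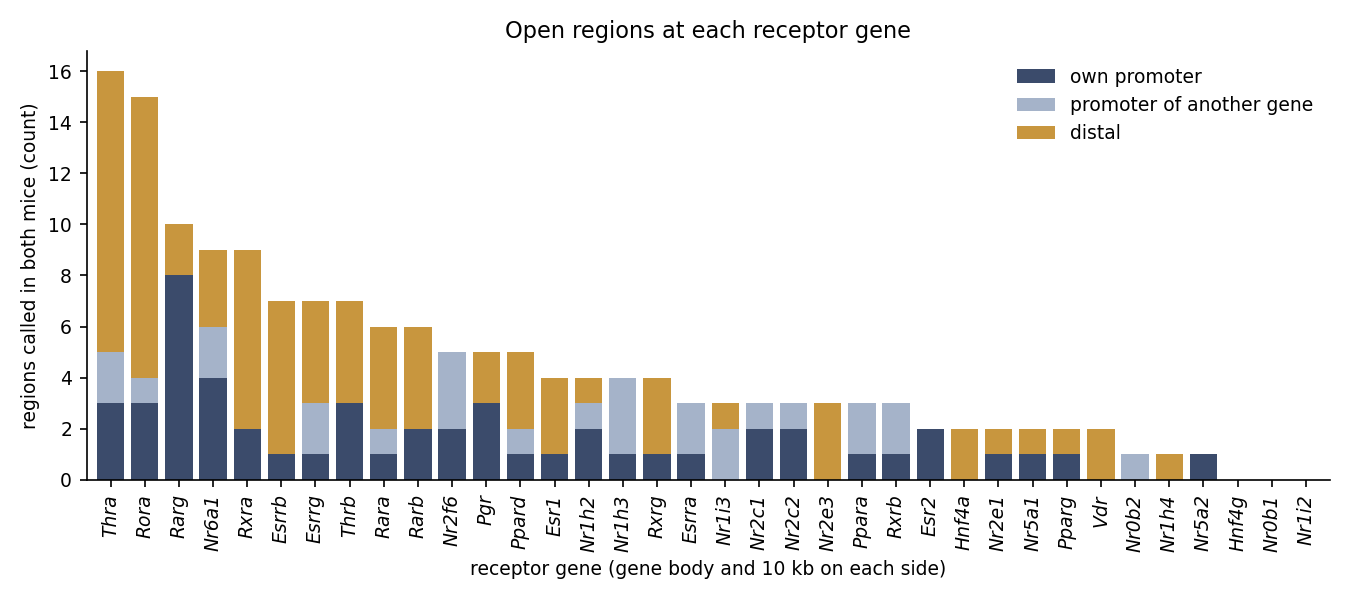
Number of regions called in both mice (vertical axis, count) at each receptor gene with 10 kb on each side, stacked by kind: at the gene's own starts, at starts of another gene, or distal. Thra (16), Rora (15) and Rarg (10) have most; distal regions make up 11 of those at Thra and 11 at Rora but 2 of those at Rarg.

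Most receptor regions held footprints, at a share near that of other regions. A footprint of each mouse was present in 147 of 159 receptor regions (92.5%), against 93.2% of all 48886 regions called in both mice. At promoters it was 26 of 27 open members (96.3%, background 99.6%). The receptor regions held 695 footprints of replicate 1, of which 391 (56.3%) overlapped one of replicate 2. Over all regions that share was 58.0%. The widest Thrb promoter region (14:17660261-17661480) had 13 and 20 footprints, 11 of replicate 1 overlapping, more than any other member region shared.

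Receptor regions held the receptor hexamer at a share near that of all regions. AGGTCA was found, on either strand, in the central 200 bp of 12 of the 159 regions (7.55%), against 6.75% of all regions. It was in 8 of 79 promoter regions (10.1%, against 6.13%) and 4 of 80 distal regions (5%, against 7.24%). A footprint of each mouse touched 2 of the 12 matches, in the Nr2c1 and Rarg regions printed above, against 16.9% of matches over all regions. At Rarg each footprint reached 2 of the 6 bases, and at Nr2c1 they covered 4 and 5. No receptor window held an exact match to TAGGTCA, the element of ROR receptors (0.988% of all regions), or to TCAAGGTCA, that of ERR and NR5 receptors (0.129%). Direct repeats of AGGTCA spaced by 1, 2, 4 or 5 bases had no match there either, and were found in 9, 1, 2 and 0 of all 48886 windows. The inverted repeats of the oestrogen and steroid response elements were found in 1 and 0 of all windows. A missing match says only that these exact letters were not in the window.

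The element of Rarb was rare, and a footprint of 1 mouse reached it. Its repeat was present in 3 of the 48886 windows, at the starts of Rarb, Itga2 and Plekhb1. In the Rarb region (14:16575261-16575760, heights 1.94 and 1.40) a footprint of replicate 1 covered 7 of the 17 bases, from 16575520 to 16575526, and none of replicate 2 touched them. The region itself held 7 footprints of replicate 1 and 4 of replicate 2.

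CTCF cores were footprinted more often than the hexamer in the same loci, a comparison not adjusted for their lengths of 11 and 6 bases. The core was found in 18 of the 159 regions (11.3%, against 11.6% of all regions), 14 of them distal. A footprint of each mouse touched 17 of the 18 cores, against 94.0% of cores over all regions. In these 17, footprints of each mouse covered all 11 bases, a stricter measure that was not taken over all regions. The exception was the region upstream of Ppard (17:28226081-28226340), where replicate 1 alone had one. The genes with a distal core were Thrb, Rara, Ppard, Rora, Nr1i3, Vdr, Hnf4a, Rxra, Nr2e3, Esrrb, Pgr and Nr6a1.

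The mice gave like heights at most receptor regions. Over the 145 receptor regions with 1 peak per mouse, the log2 ratio of replicate 2 to replicate 1, centred on the median of all regions, had an SD of 0.48, the same as over all 45612 (0.48). It lay more than 1 unit from the median at 5 regions (3.45%, background 4.4%), always lower in replicate 2. These were a distal region upstream of Nr1h2 (-1.53, heights 3.50 and 0.903), the Esrrb intron printed above (-1.41, 3.27 and 0.914), a region downstream of Rxrg (-1.20, 6.88 and 2.22), the Ppard region printed above (-1.10, 5.82 and 2.02) and the higher promoter region of Esr2 (-1.02, 1.75 and 0.640). The highest ratio in favour of replicate 2 was 0.95, in an intron of Rora. With 1 library per animal none of these differences has an error of its own.

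Regions with a CTCF core were on the lower side in replicate 2. Of the 18 receptor regions with a core 17 lay below the median ratio, with a median of -0.62, and the other, upstream of Ppard, lay at 0.013. Of the 127 without a core 58 lay below it, with a median of 0.03. Over all regions the medians were -0.53 with a core (82.8% below the median ratio) and 0.05 without, and what sets this difference was not tested.

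**Figure D4:**
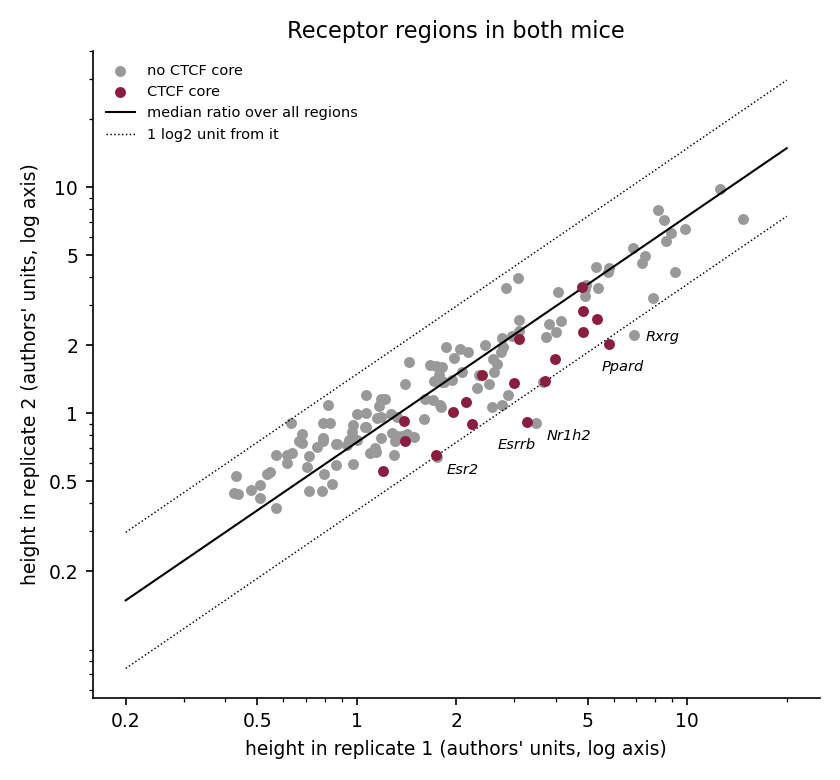
Height in replicate 2 against height in replicate 1 (both log axes, authors' units) for the 145 receptor regions with 1 peak per mouse. Dark red points hold a CTCF core; the solid line is the median ratio of all regions (0.744) and dotted lines are 1 log2 unit from it. The 5 named regions lie below the lower dotted line, and 17 of the 18 dark red points lie below the solid line.

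Regions called in 1 mouse alone were present at 24 of the 36 loci. Replicate 1 had 85 such regions and replicate 2 had 48. The same counts were not made over all genes, so they cannot be read as a trait of the receptor loci. Of the 85, 21 lay in Nr2e3, between 9:59945630 and 9:59955924, and their heights of 0.079 to 0.316 were mostly below the 5th percentile of that library (0.268). Replicate 2 had no peak in that stretch. The deposited false discovery rate (FDR) of the cut rate showed the same: positions with an FDR under 0.001 covered 7933 bp of the Nr2e3 locus in replicate 1 and 702 bp in replicate 2. A like run of 7 very low peaks (0.090 to 0.146) lay in an intron of Rarb in replicate 2, from 14:16454961 to 14:16458130, where replicate 1 had none, and 4 more lay in an intron of Thrb. Such low peaks made up 7.28% of the peaks of replicate 1 and 5.43% of those of replicate 2 at receptor genes, against 5% over each list by construction. They were not spread over the loci. All 19 of replicate 1 lay at Nr2e3, and the 12 of replicate 2 lay at Rarb (7), Thrb (4) and Rora (1).

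Other loci with unequal coverage were Nr5a1 (1278 and 184 bp under 0.001), Rxrb (4237 and 1525 bp) and Rara (4348 and 1655 bp), all higher in replicate 1, and Nr5a2 (175 and 607 bp) and Rarb (1931 and 4039 bp), higher in replicate 2. Genome-wide, such positions covered 23.3 and 24.3 Mb. How many other genes differ as much between the mice was not counted, so unequal coverage cannot be read as a trait of the receptor loci. The cause of these local differences was not tested.

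**Figure D5:**
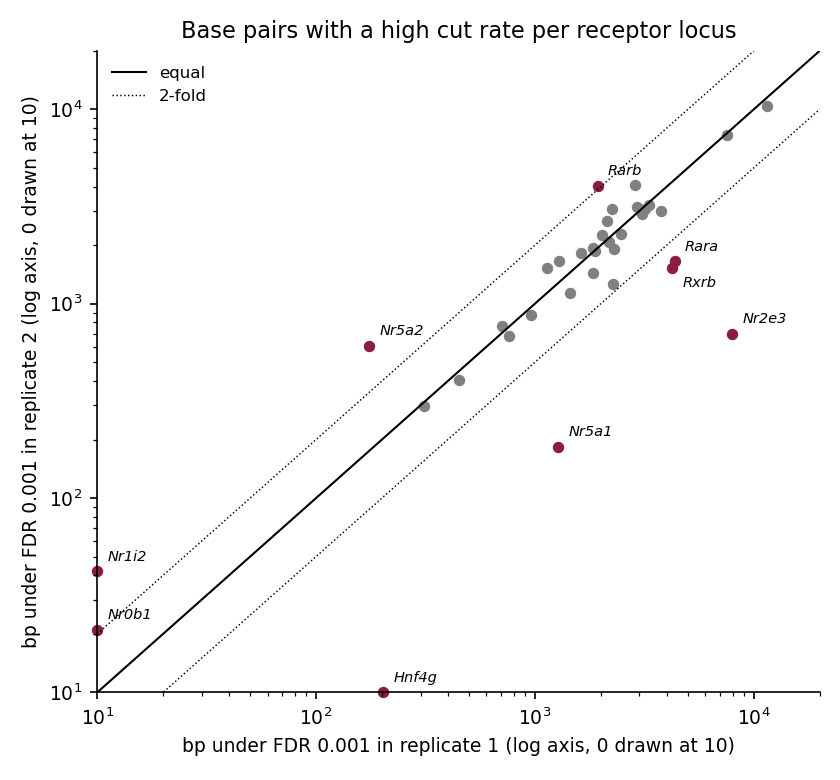
Base pairs under an FDR of 0.001 in each receptor locus in replicate 2 against replicate 1 (both log axes, bp, with 0 drawn at 10). The solid line is equality and dotted lines are 2-fold from it; named genes lie outside them, and Nr1i2, Nr0b1 and Hnf4g had 0 bp in 1 mouse. Nr2e3 is the farthest to the side of replicate 1 among loci covered in both mice, at 7933 against 702 bp.

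Genes that work with the receptors were open to different degrees. All 15 coregulators, the proteins that receptors recruit to activate or silence genes, had a promoter region in both mice (background 61.1%), and 13 of the 15 have CpG-rich starts, for which the background is 93.4%. Ncoa2, a steroid receptor coactivator gene, was highest at 10.0 and 6.91, and the mitochondrial coactivator gene Ppargc1a was lowest at 0.784 and 0.808. The corepressor gene Ncor1 (3.47 and 2.77) lay between.

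Of 23 genes that make, carry or break down receptor ligands, 11 (47.8%) had a promoter region in both mice, below the background of 61.1%. Of the 10 with CpG-rich starts 4 had one (background 93.4%), and of the 13 others 7 (background 27.7%). Cyp46a1, the neuronal cholesterol hydroxylase that makes a ligand of liver X receptors, led at 11.1 and 8.14, followed by the lipid carrier gene Fabp5 (6.34 and 3.83) and the retinol dehydrogenase gene Rdh10 (4.23 and 3.95, in a region shared with Rpl7). Of the retinaldehyde dehydrogenase genes, Aldh1a2 had 0.626 and 0.544, Aldh1a1 had a promoter peak in replicate 2 alone (0.477), and Aldh1a3 had none. Of the thyroid hormone genes, the transporter gene Slco1c1 (0.462 and 0.404) was open and low. Dio2, the activating deiodinase gene of astrocytes, had a promoter peak in replicate 2 alone (0.438), and Cyp26b1, which degrades retinoic acid, in replicate 1 alone (0.243).

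Of 15 genes known as receptor targets, 11 (73.3%) had a promoter region in both mice (background 61.1%). These were 8 of the 9 with CpG-rich starts (background 93.4%) and 3 of the 6 others (background 27.7%). The thyroid hormone target Klf9 had 8.15 and 5.91, and the liver X receptor targets Mylip (6.83 and 5.16), Srebf1 (3.56 and 2.79), Abca1 (2.98 and 2.46) and Abcg1 (2.44 and 1.31) were all open. The 4 closed ones were the liver genes Cyp7a1, Cyp2b10 and Cyp3a11, targets of sterol, bile acid and xenobiotic receptors, and Greb1, an oestrogen target. Greb1 still had 4 distal regions.

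Markers of the labelled tissue and of others were checked. All 5 excitatory neuron markers and 5 astrocyte markers had a promoter region in both mice, as did 3 of 5 oligodendrocyte, 2 of 5 interneuron, 2 of 5 microglial and 2 of 5 endothelial markers, and 0 of 5 liver markers. The shorter lists held 69208 and 69128 peaks, the longer ones 120027 and 120701, and the footprint lists 318728 and 317176 entries. Median peak height was 1.17 and 0.909. Depth in reads was unknown, so no interval that needs it is given.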

How the data were processed

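DNase-seq of left cerebral cortex came from 2 mice, 1 library each. Per the deposited read-me text, the authors made peak, footprint and cut-rate files separately for each library on mm10. The aligner and callers: not given in the sources used here. Deposited peak heights are signal in whole multiples of a step per library, with a factor that is not stated. Deposited footprints carry a score that never varies, which left their positions for use. Deposited q-values (FDR of the cut rate) are listed per run and only under 0.05. Mitochondrial genes were left out. As a check of the build, 21621 of 21634 annotated start codons read ATG in the GRCm38.p6 sequence (pysam 0.24.0, samtools 1.23.1). Peaks were merged, assigned to genes and searched for exact motifs with Python 3.11.15 and NumPy 2.4.6, in scripts tested on simulated peaks. CTCF was searched by its core consensus. Alternatives were single libraries, the longer lists, peaks above the median height, other windows, flanks and overlaps, and, added after seeing the data, basic transcripts only, the gene lists and height ratios under other peak sets, and the loci without Nr2e3. Values in full are given for members with a promoter region in both mice and, per subfamily, the member with most regions. Sequences were to be those of Rarb, the highest promoter region and the 3 highest distal regions with a receptor hexamer under footprints of both mice; Nr2c1 and the CTCF cores were added after seeing values. The members and gene lists were chosen with earlier results of these data known, so no test over lists was run.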

Additional observations from a re-analysis of the deposited data

How the results depend on the processing

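Of 50 recomputed counts, medians and shares, 39 stayed near the reported value and 11 did not: counts and height ratios were held to 1.5 times, the share with a hexamer to its exact binomial interval, and the median density to 1 SD of its single-library values. The 159 receptor regions became 257 without replicate 2, when all peaks of replicate 1 count, and were 210 without replicate 1. They numbered 253 in the longer lists, 93 with peaks above the median height and 274 with 50 kb flanks. Members with a distal region fell from 23 to 15 above the median height. The median of 0.416 regions per 10 kb was 0.471 without replicate 1, 0.440 without replicate 2, 0.505 in the longer lists, 0.251 above the median height and 0.297 in the gene body alone. Ligand genes with a promoter region rose from 11 to 18 in the longer lists. The 27 members with a promoter region ranged from 20 (above the median height, without Esr1, Esr2, Esrrb, Esrrg, Nr5a1, Nr5a2 and Pparg) to 30 (longer lists, with Hnf4g, Nr0b1 and Vdr). With basic transcripts only, an alternative chosen after seeing the data, there were 25, without Nr1h3 and Nr5a1, and the mean promoter height of Rxra was 1.27. The height of Pgr was 1.10 without replicate 2 and 0.884 with promoters of 500 bp, where the mean height of Esr2 was 0.619 and Rara had no promoter region. An overlap of at least 0.5 of each peak left Ppara, Nr5a1 and Nr5a2 without one. No paired analysis was possible because there is 1 group only. Limits are the unknown depth, the unstated height factor, exact-letter motifs, positions without strand or allele, and 1 library per animal.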

Other observations

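Of the 9 receptor genes without a promoter region in both mice, 5 had at least 1 distal region in both: Nr1h4, Nr1i3, Vdr, Hnf4a and Nr2e3. Over all protein-coding genes, open and closed together, 44.3% had one, and the closed genes were not counted apart. The Hnf4a intron region at 7.86 and 3.23 was the highest distal region of these 5 genes. It held 4 footprints of replicate 1 and 3 of replicate 2, and its central 200 bp had no match to the CTCF core or to AGGTCA.

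Motifs of other factors were found in receptor regions at these shares. The E-box CAGATG, a sequence bound by NeuroD-type factors, was present in 15.7% of receptor regions and 17.9% of all regions, and the AP-1 site TGANTCA in 5.03% and 7.93%.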
